A study of Mus musculus with 38 samples.

Results

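The IBA1-positive segments of the hepatic parenchyma were compared between DDC-fed and control diet-fed (CON) mice, with both genotypes in 1 test. They were chosen by their labels alone (tissue parenchymal, cell type IBA1 positive) and are 7 of the 38 segments of the series. 4 segments came from DDC-fed livers, 2 of them WT (ROI 010 and 012) and 2 Trail.mye (ROI 037 and 038). 3 came from CON livers, 1 of them WT (ROI 004) and 2 Trail.mye (ROI 030 and 031). The 15 periportal IBA1 segments (9 DDC, 6 CON) were used only to ask where the parenchymal diet effect differed.

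Trail.mye mice lack TRAIL in myeloid cells, with the deletion driven by Cre from the Lyz2 locus, which is active in neutrophils and monocytes as well as in macrophages. WT mice carry the intact gene. The study states that its mice were matched for age and sex, but the sex behind each segment is not in the labels. The mice were fed the DDC or the control diet in rounds of 5 days with 3 days of chow between them over 21 days. They were killed on day 22. Expression was read from formalin-fixed liver with GeoMx whole-transcriptome probes, which are released by ultraviolet light from a masked segment of the section, so that a segment holds whatever lies under its mask. The mouse, section and slide behind each segment are not in the labels. Segments may share an animal, so the p-values measure only the spread between segments and are too small for animals. WT CON is a single segment, and its spread was taken to be that of the other groups.

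DDC blocks the last step of heme synthesis through an alkylated heme derivative, and the porphyrin that accumulates forms plugs in bile ducts, so that the diet is used as a model of cholestasis and ductular reaction. It also damages hepatocytes, in which keratins 8 and 18 accumulate and aggregate in Mallory-Denk bodies. IBA1, encoded by Aif1, is a cytoplasmic marker of macrophages. In the parenchyma most macrophages are Kupffer cells, which sit in the sinusoids, clear particles and old red cells and recycle their iron. Monocytes recruited in injury give rise to macrophages that express lipid-handling and matrix-degrading genes such as Trem2, Gpnmb and Mmp12.

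Total counts were 37093 in WT CON, 39812 and 106664 in WT DDC, 252265 and 265758 in Trail.mye CON, and 33832 and 48357 in Trail.mye DDC. Depth therefore moved with the groups: 59.9% of the 10547 genes were at 1 count, the lowest value in the table, in WT CON and 14.7 to 51.0% in the DDC segments, but 0.0948 and 0.123% in Trail.mye CON. Values below are Q3-normalized counts, in which every segment has the same 75th percentile (10.5), and 1 count is worth 5.25 in WT CON, 3.50 and 1.50 in WT DDC, 0.584 and 0.553 in Trail.mye CON and 3.50 and 2.63 in Trail.mye DDC. Values at or near these levels are counting floors, not measured levels. Pearson correlations of the segments' log2 values across genes ran from 0.524 to 0.815, the highest between the Trail.mye CON segments. The macrophage marker C1qa was present in every segment, at 80.5 to 123 in DDC and 84.0 to 138 in CON segments, whereas Aif1 was at 1 count in WT DDC ROI 010. Hepatocyte transcripts were present in the masks as well: Alb alone held 2.09 to 6.39% of the counts. In such mixed segments fewer cells of a type cannot be told apart from less RNA per cell, and the cell that a transcript came from was not measured.

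In the parenchymal IBA1 segments of DDC-fed mice the glutathione transferases Gstm1 and Gstm3, the metallothioneins Mt1 and Mt2, the keratins Krt8 and Krt18 and the macrophage elastase Mmp12 rose, and the urinary protein Mup13, the fatty acid carrier Fabp1, the desaturase Scd1 and the bile acid carrier Slc10a1 fell. Of 10547 genes, 31 rose (0.294%) and 49 fell (0.465%) at an adjusted p under 0.05 in edgeR's quasi-likelihood test with genotype as a term, and 680 genes had an unadjusted p under 0.05. Over all genes tested, the log2 fold change had a median of -0.15. The scaling sets the balance: with TMM factors 34 genes rose and 25 fell (57.6% higher, against 38.75% here) and with DESeq2 58 rose and 36 fell (61.7% higher), with all-gene medians of 0.04 and 0.10. Over all genes, 195 (1.85%) had all 4 DDC segments above all 3 CON segments and 842 (7.98%) had them all below. Of the 80 genes called, 70 were separated in this way and 10 overlapped. With every segment thinned to 33832 counts, 34 genes were called, 33 of them among the 80.

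Of the 76 called genes that are reported here, 21 stayed called in all 7 fits that each left out 1 segment. The 10 that rose are Gm3776, Gstm3, Mmp12, Krt8, Lcn2, Krt18, Cd63, Gstm1, Mt2 and Mt1. The 11 that fell are Mup13, Sult2a8, Fabp1, Car3, Cyp2e1, Serpina3k, Ces3b, Scd1, Slc27a2, Gm52523 and Apoa2. A further 12 lost the call in 1 of the 7 fits. The plot of the separated genes with the extreme fold changes gives their values in each segment.

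**Figure D1:**
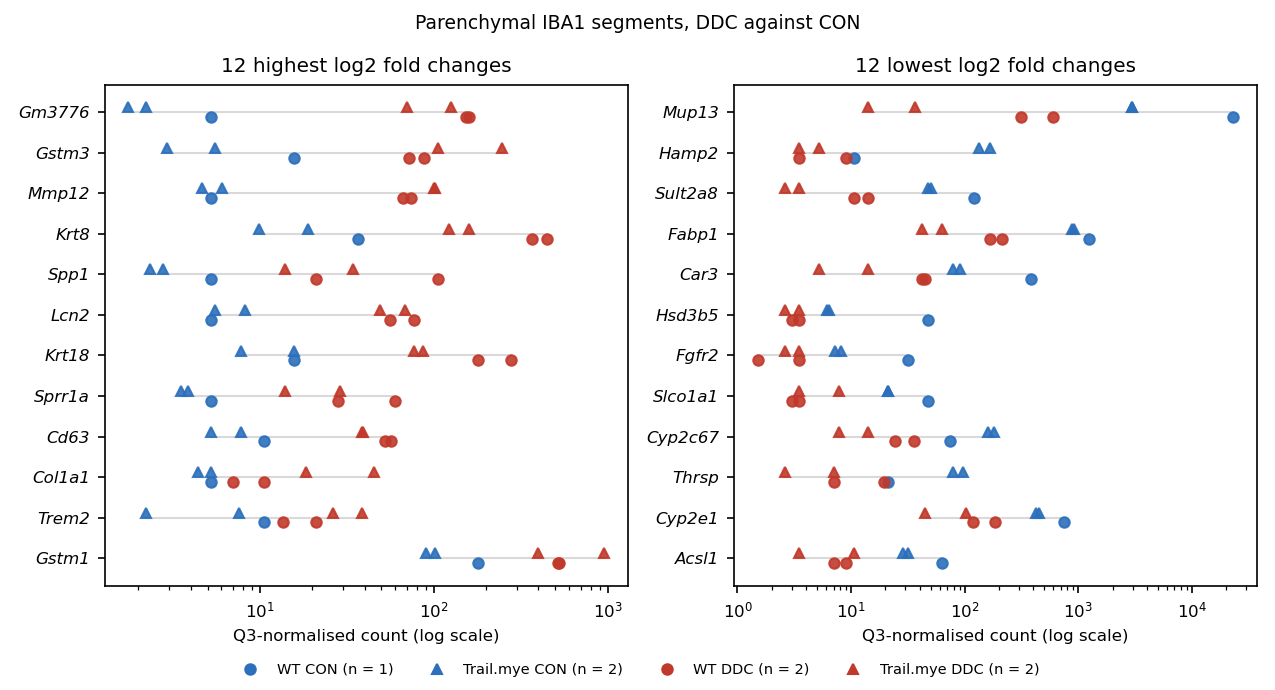
Q3-normalized counts (log axis) of the called genes with the highest and the lowest log2 fold changes among those whose diet groups do not overlap, 1 point per parenchymal IBA1 segment, marked by diet and genotype. Gm3776 lay at 70.0 to 159 in the 4 DDC segments and at 1.75 to 5.25 in the 3 CON segments, and Mup13 at 14.0 to 596 and 2946 to 23020.

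Glutathione transferases were at the top of the genes that rose. These enzymes couple glutathione to electrophiles and are classic targets of NRF2, the transcription factor of the antioxidant response. Gm3776, a predicted gene at chr9:78257129-78269166 (GRCm38.p6) in the alpha-class cluster between Gsta1 and Gsta2, stood at 154 and 159 in WT DDC and 70.0 and 126 in Trail.mye DDC, against 5.25 in WT CON and 1.75 and 2.21 in Trail.mye CON. All DDC segments were far above all CON segments, where the gene was at 1 to 4 counts (log2 fold change 5.45, SE 0.48, adjusted p = 4.26e-08). Gsta1 and Gsta2 are not among the gene targets, and whether their transcripts reach the probes of Gm3776, a near-identical relative, was not tested.

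Gstm3, a mu-class transferase, stood at 87.5 and 72.0 in WT DDC and 105 and 247 in Trail.mye DDC, against 15.8 in WT CON and 2.92 and 5.53 in Trail.mye CON. Gstm3 had a log2 fold change of 4.96 (SE 0.50, adjusted p = 5.31e-07). Its Trail.mye DDC values were the highest. Gstm1, its abundant hepatic neighbour on chromosome 3, stood at 522 and 518 in WT DDC and 396 and 953 in Trail.mye DDC, against 179 in WT CON and 90.5 and 101 in Trail.mye CON. Gstm1 had a log2 fold change of 2.38 (SE 0.33, adjusted p = 8.56e-05). The groups were again apart, with the upper value in the same Trail.mye DDC segment (ROI 038). Gsta4, an alpha-class transferase for lipid peroxidation products that was singled out after its values were seen, ran from 21.0 to 56.0 in DDC and from 5.25 to 10.5 in CON segments (log2 fold change 1.75, SE 0.42, adjusted p = 0.0441), and stayed called in 1 of 7 fits with a segment left out.

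Among the 13 measured genes of a list of NRF2 targets, 2 (Gstm1 and Gstm3) rose, none fell and 12 had a positive log2 fold change, with a list median of 1.25 against -0.15 for all genes. 5 of the 13 had all DDC segments above all CON segments, against 1.85% of all genes, of which 0.294% rose by the test. The 11 that did not pass the test include Txnrd1, thioredoxin reductase (1.25, adjusted p = 0.473), Srxn1, sulfiredoxin (1.29, adjusted p = 0.475), Mgst3, a microsomal transferase (1.27, adjusted p = 0.291), and Gclc, the catalytic subunit of glutathione synthesis (1.25, adjusted p = 0.228). Nqo1, a quinone reductase often used as the reference target, stood at 3.50 to 18.0 in DDC and 5.25 to 6.08 in CON segments (0.78, adjusted p = 0.96). Gstp1 is described with the genotypes below.

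Metallothioneins, small zinc- and copper-binding proteins, rose with Lcn2. Mt1 stood at 94.5 and 104 in WT DDC and 98.0 and 163 in Trail.mye DDC, against 5.25 in WT CON and 34.4 and 31.0 in Trail.mye CON. Mt1 had a log2 fold change of 2.22 (SE 0.36, adjusted p = 0.000885). Mt2, its neighbour on chromosome 8, was at 35.0 and 43.5 in WT DDC and 91.0 and 116 in Trail.mye DDC, against 10.5 in WT CON and 21.0 and 17.7 in Trail.mye CON. Mt2 had a log2 fold change of 2.37 (SE 0.35, adjusted p = 0.000194). For both genes the DDC segments lay above the CON segments, and the Trail.mye CON values lay above that of WT CON. Lcn2, a siderophore-binding protein of the acute phase, stood at 56.0 and 76.5 in WT DDC and 49.0 and 68.3 in Trail.mye DDC, against 5.25 in WT CON and 8.17 and 5.53 in Trail.mye CON. Lcn2 had a log2 fold change of 3.15 (SE 0.40, adjusted p = 2.11e-05). All DDC values were at least 49.0 and all CON values at most 8.17. Hp, haptoglobin, which binds free hemoglobin, ran from 305 to 510.2 in DDC and from 125 to 215 in CON segments (log2 fold change 1.28, SE 0.29, adjusted p = 0.0246) and stayed called in 3 of 7 fits with a segment left out.

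The rest of the acute phase list gave no call. Of 15 measured members, 3 rose (Lcn2, Mt1 and Mt2), against 0.294% of all genes, and none fell. The log2 fold change was positive in 10 of the 15, with a median of 0.16 against -0.15 for all genes. The list median was 0.83 within WT, which has 1 CON segment, and -0.18 within Trail.mye. The inducible amyloids Saa1 (0.17, adjusted p = 0.994) and Saa2 (0.54, adjusted p = 0.992) did not pass the test, nor did Fgg, the fibrinogen gamma chain (-1.18, adjusted p = 0.0555), whose DDC values (84.0 to 237) all lay below its CON values (292 to 341).

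Among heme and iron genes, the pathway that DDC acts on, Hp rose and Hamp2 fell, both on the iron list. Over all genes 0.294% rose and 0.465% fell. None of 13 measured genes of heme synthesis and breakdown passed the test (median 0.01). Alas1, the rate-limiting enzyme of heme synthesis, stood at 66.5 and 63.0 in WT DDC and 42.0 and 36.8 in Trail.mye DDC, against 73.5 in WT CON and 128 and 140.4 in Trail.mye CON, so that all DDC segments were below all CON segments without a call (-1.21, adjusted p = 0.159). Hmox1, the inducible heme oxygenase, stood at 56.0 and 51.0 in WT DDC and 45.5 and 65.7 in Trail.mye DDC, against 15.8 in WT CON and 33.3 and 22.7 in Trail.mye CON, with all DDC segments above CON and again no call (1.13, adjusted p = 0.215).

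Of 12 iron genes, 1 rose (Hp) and 1 fell (Hamp2), with a median of 0.47. The ferritin subunits Fth1 (0.78, adjusted p = 0.426) and Ftl1 (0.83, adjusted p = 0.159), ceruloplasmin Cp (1.05, adjusted p = 0.221) and hemopexin Hpx (1.05, adjusted p = 0.0851) had all DDC segments above all CON segments and did not pass the test. Hamp, hepcidin, was at 518 and 589.7 in WT DDC and 66.5 and 70.9 in Trail.mye DDC, against 415 in WT CON and 216 and 221 in Trail.mye CON (-0.80, adjusted p = 0.636), with the WT DDC segments at the top and the Trail.mye DDC segments at the bottom.

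The simple-epithelial keratins rose together. Krt8 stood at 368 and 446 in WT DDC and 123 and 160.2 in Trail.mye DDC, against 36.8 in WT CON and 9.92 and 18.8 in Trail.mye CON. Krt8 had a log2 fold change of 3.34 (SE 0.35, adjusted p = 1.24e-06). Its partner Krt18, which lies beside it on chromosome 15 and with which it polymerizes, stood at 179 and 278 in WT DDC and 77.0 and 86.7 in Trail.mye DDC, against 15.8 in WT CON and 15.8 and 7.74 in Trail.mye CON. Krt18 had a log2 fold change of 3.02 (SE 0.40, adjusted p = 3.62e-05). In both, the WT DDC segments were highest, the Trail.mye DDC segments followed and no CON segment reached them. Of 7 measured Mallory-Denk body genes these 2 rose, against 0.294% of all genes, none fell and the median was 0.99. Sqstm1, the p62 adaptor of the inclusions, overlapped between the diets (35.0 to 84.0 in DDC, 21.6 to 63.0 in CON, 0.99, adjusted p = 0.457), and Tgm2, the transglutaminase that crosslinks keratins, had all DDC segments above CON without a call (0.96, adjusted p = 0.624). The bile duct keratins gave no call. Krt19 was at 2.63 to 3.50 in DDC and 2.76 to 5.25 in CON segments, Krt7 was at 1 count in all DDC segments, and of 10 cholangiocyte markers only Spp1 passed the test.

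Promoter windows of the called genes were searched for the core of the antioxidant response element (TGACNNNGC) and of the STAT site (TTCNNNGAA), on both strands over the 250 bases before the start, in the RefSeq promoters of GRCm38.p6. A window was at hand for 25 of the 31 genes that rose, 38 of the 49 that fell and 8428 of all 10547. The first motif was in 3 of 25 (12%: Eif2s3y, Mt2 and Sprr1a) and in 3 of 38 (7.89%: Eif2d, Fabp1 and G6pc), against 13.7% of all windows. The second was in 1 of 25 (4%: Gm3776) and in 3 of 38 (7.89%: Hamp2, Slc10a1 and Slco1b2), against 7.13% of all windows. A match is a string of letters and not a site in use. The windows of a metallothionein that rose, the transferase that rose most and the hepcidin paralog that fell are given 5′ to 3′ on the gene's strand, with the match in capitals, 79 bases before the start in Mt2, 149 in Gm3776 and 94 in Hamp2.
Mt2 (chr8:94172368-94172617, plus strand): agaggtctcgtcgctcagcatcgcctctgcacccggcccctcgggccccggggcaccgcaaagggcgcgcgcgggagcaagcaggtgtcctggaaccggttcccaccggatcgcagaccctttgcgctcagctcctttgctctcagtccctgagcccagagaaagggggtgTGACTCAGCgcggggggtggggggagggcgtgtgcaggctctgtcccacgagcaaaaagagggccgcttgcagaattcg
Gm3776 (chr9:78256879-78257128, plus strand): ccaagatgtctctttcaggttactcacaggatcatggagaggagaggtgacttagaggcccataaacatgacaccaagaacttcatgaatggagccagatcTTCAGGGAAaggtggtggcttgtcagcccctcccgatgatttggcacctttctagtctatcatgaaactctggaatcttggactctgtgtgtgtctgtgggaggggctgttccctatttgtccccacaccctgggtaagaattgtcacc
Hamp2 (chr7:30924182-30924431, minus strand): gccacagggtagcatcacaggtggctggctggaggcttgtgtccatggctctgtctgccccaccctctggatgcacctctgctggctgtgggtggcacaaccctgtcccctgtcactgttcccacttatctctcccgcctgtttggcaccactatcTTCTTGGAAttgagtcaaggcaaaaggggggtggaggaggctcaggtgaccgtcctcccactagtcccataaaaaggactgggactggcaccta

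Several genes of recruited and activated macrophages rose, as did the lysosome gene Cd63, and no general macrophage marker passed the test. Mmp12, macrophage elastase, stood at 66.5 and 73.5 in WT DDC and 102 and 99.8 in Trail.mye DDC, against 5.25 in WT CON and 4.67 and 6.08 in Trail.mye CON. Mmp12 had a log2 fold change of 4.14 (SE 0.39, adjusted p = 1.79e-07). All DDC segments were at 66.5 or more and no CON segment exceeded 6.08. Cd63, a tetraspanin of late endosomes, stood at 52.5 and 57.0 in WT DDC and 38.5 and 39.4 in Trail.mye DDC, against 10.5 in WT CON and 5.25 and 7.74 in Trail.mye CON. Cd63 had a log2 fold change of 2.52 (SE 0.40, adjusted p = 0.000667). The DDC segments were close to each other. Trem2, a lipid receptor of macrophages, ran from 13.5 to 38.5 in DDC and from 2.21 to 10.5 in CON segments (log2 fold change 2.44, SE 0.48, adjusted p = 0.00783). Its call was lost without Trail.mye CON ROI 031 or either Trail.mye DDC segment, with a log2 fold change of 1.80 to 3.11 over the 7 fits. It was called under 6 of the 11 other settings that tested it, and not after thinning. Gpnmb, a lysosomal glycoprotein, stood at 14.0 and 16.5 in WT DDC and 42.0 and 10.5 in Trail.mye DDC, against 10.5 in WT CON and 2.92 and 3.32 in Trail.mye CON. Gpnmb had a log2 fold change of 2.56 (SE 0.54, adjusted p = 0.0137). The lowest DDC value of Gpnmb equals the 2 counts of WT CON, and the call was lost without WT DDC ROI 012 or Trail.mye DDC ROI 037. Gpnmb was called under 4 of the 10 other settings that tested it. Lgals3, galectin 3, ran from 36.8 to 84.0 and 12.8 to 19.9 (log2 fold change 1.60, SE 0.38, adjusted p = 0.0441) and stayed called in 1 of 7 fits with a segment left out.

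By list, 3 of 10 measured genes of monocytes and monocyte-derived macrophages rose (Trem2, Gpnmb and Lgals3), against 0.294% of all genes. None fell, 6 of the 10 had a positive log2 fold change and the median was 1.05. The list median was 0.05 within WT and 1.18 within Trail.mye, against -0.31 and -0.10 for all genes. Trem2 and Gpnmb had log2 fold changes of 0.59 and 0.58 within WT and 2.67 and 2.88 within Trail.mye. Lgals3 had the larger one within WT (2.18, against 1.46). The other members include Cd9 (1.33, adjusted p = 0.16), which was above CON in all DDC segments, and the monocyte genes Plac8 (-0.74, adjusted p = 0.963) and Chil3 (-0.32, adjusted p = 0.994), which were not. The summed level of the list was 139 to 231 in DDC and 85.7 to 113 in CON segments, without overlap. That sum holds the 3 called genes, so it is no separate sign of a rise across the list. Whether the other members rose as a group was not tested. Of 13 general macrophage markers none passed the test (median 0.33), and their sums overlapped (480 to 811 in DDC, 614 to 753 in CON). Aif1 itself was at 3.50 and 13.5 in WT DDC and 7.003 and 13.1 in Trail.mye DDC, against 15.8 in WT CON and 14.6 and 19.9 in Trail.mye CON (-0.68, adjusted p = 0.949). C1qa (-0.05, adjusted p = 0.994), C1qb (0.35, adjusted p = 0.986) and C1qc (-0.02, adjusted p = 0.994), which encode the complement component that Kupffer cells secrete, overlapped between the diets.

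**Figure D2:**
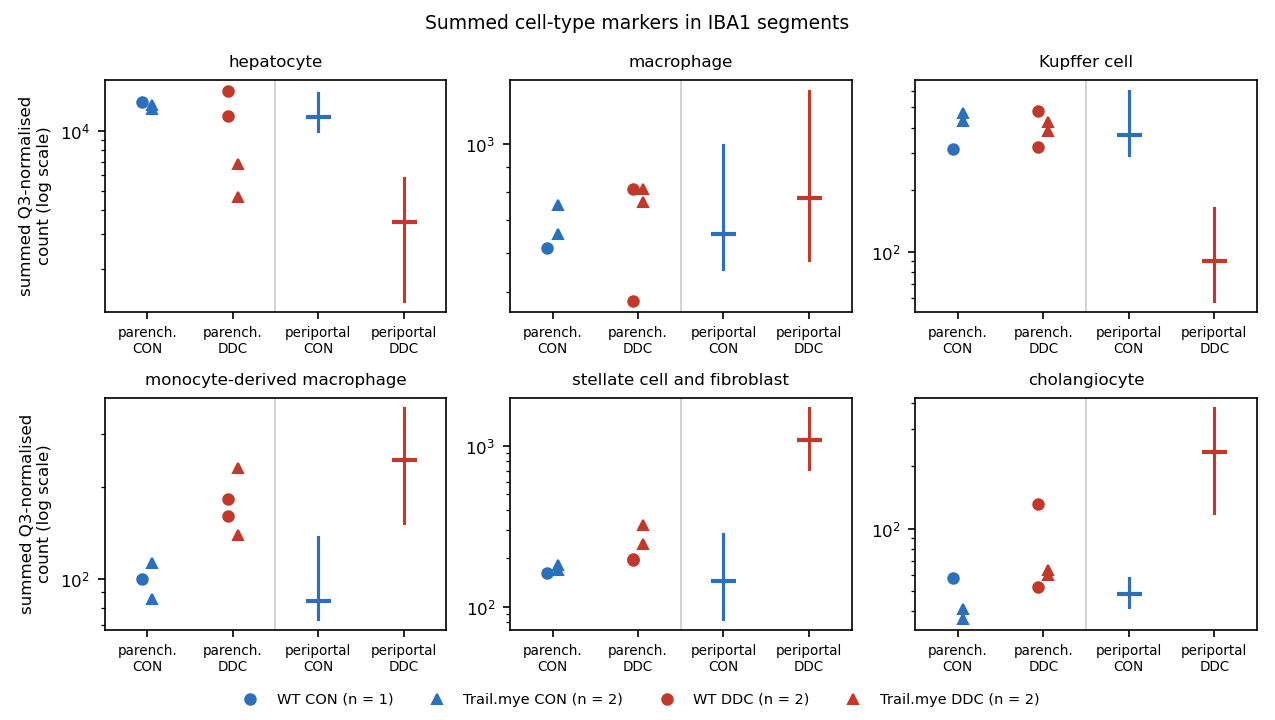
Summed Q3-normalized counts of each cell type's marker list, 1 point per parenchymal IBA1 segment by diet and genotype, with the periportal IBA1 segments as a median bar and a line from the lowest to the highest (6 CON, 9 DDC). The monocyte-derived list lay at 139 to 231 in parenchymal DDC and 85.7 to 113 in CON segments, and the Kupffer list at 322 to 482 and 315 to 469.

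The summed level of the stellate cell list was 196 to 322 in DDC and 163 to 182 in CON segments. Of its 12 genes 2 rose (median 0.58), against 0.294% of all genes. Col1a1, a fibrillar collagen, stood at 7.003 and 10.5 in WT DDC and 45.5 and 18.4 in Trail.mye DDC, against 5.25 in WT CON and 5.25 and 4.42 in Trail.mye CON. Col1a1 had a log2 fold change of 2.49 (SE 0.45, adjusted p = 0.00293). Col3a1 stood at 10.5 and 12.0 in WT DDC and 45.5 and 18.4 in Trail.mye DDC, against 5.25 in WT CON and 3.50 and 7.19 in Trail.mye CON. Col3a1 had a log2 fold change of 2.36 (SE 0.46, adjusted p = 0.0063). The high values of both were in the Trail.mye DDC segments, the call was lost without ROI 037, and each was called under 3 of the 10 other settings that tested it. The hepatocyte list summed to 11950.3 and 16126 in WT DDC and 4646 and 6857 in Trail.mye DDC, against 12945 to 14112 in CON, with 1 of 12 genes lower (Serpina3k) and a median of -0.45. None of 9 endothelial, 5 neutrophil and 5 lymphoid and plasma cell genes passed the test, and S100a8 and Igkc were at 1 count in all DDC segments.

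Of 15 lysosome and phagocytosis genes 1 rose (Cd63), none fell and 14 had a positive log2 fold change (median 0.47). In 7 of them all DDC segments lay above all CON segments, against 1.85% of all genes, of which 0.294% rose. The cathepsins Ctsd (238 and 293 in WT DDC and 144 and 199.6 in Trail.mye DDC, against 68.3 in WT CON and 100.4 and 92.9 in Trail.mye CON, 1.16, adjusted p = 0.0952) and Ctsl (1.13, adjusted p = 0.142) were among the 7 and did not pass the test. Mmp12 was the 1 gene of 14 in the extracellular matrix list that rose (median 0.42). Spp1, osteopontin, a secreted matrix protein of bile duct cells and of macrophages, stood at 21.0 and 105 in WT DDC and 14.0 and 34.1 in Trail.mye DDC, against 5.25 in WT CON and 2.33 and 2.76 in Trail.mye CON. Spp1 had a log2 fold change of 3.32 (SE 0.62, adjusted p = 0.00433). The call was lost without Trail.mye DDC ROI 038. Sprr1a, a cornified envelope protein that is otherwise known from squamous epithelium, stood at 28.0 and 60.0 in WT DDC and 14.0 and 28.9 in Trail.mye DDC, against 5.25 in WT CON and 3.50 and 3.87 in Trail.mye CON (log2 fold change 2.65, SE 0.49, adjusted p = 0.00433) and lost the call without the same segment. Chemokines and cytokines (13 genes), antigen presentation (13), interferon response (10), the endoplasmic reticulum stress response (11) and the cell cycle (12) had no called member. Their medians ran from -0.45 to -0.05, near that of all genes, and with TMM factors those of chemokines and interferon genes stayed negative (-0.11 and -0.26) while the other 3 turned positive.

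The deepest fall was that of a major urinary protein. Mup13 (chr4:61224308-61228252), whose family encodes secreted pheromone carriers that male livers express under growth hormone, stood at 23020.0 in WT CON and 2957 and 2946 in Trail.mye CON, against 315 and 596 in WT DDC and 14.0 and 36.8 in Trail.mye DDC. Mup13 had a log2 fold change of -6.18 (SE 0.27, adjusted p = 9.86e-15). In raw counts this was 4383 in WT CON, 5067 and 5328 in Trail.mye CON, 90 and 397 in WT DDC and 4 and 14 in Trail.mye DDC, so that no DDC segment came near a CON segment. WT CON had the highest Q3-normalized count and the lowest raw count of the CON segments. The family's genes are nearly identical, and Mup13 is its 1 target in the table, so its value may hold reads of other members. Hsd3b5, a male-specific steroid dehydrogenase, stood at 47.3 in WT CON and 6.42 and 6.08 in Trail.mye CON, against 3.50 and 3.001 in WT DDC and 3.50 and 2.63 in Trail.mye DDC. Hsd3b5 had a log2 fold change of -3.00 (SE 0.60, adjusted p = 0.0093). All DDC values were at 1 or 2 counts, and the CON signal was mainly in WT. Nudt7, a peroxisomal coenzyme A hydrolase, stood at 131 in WT CON and 30.3 and 29.3 in Trail.mye CON, against 21.0 and 12.0 in WT DDC and 17.5 and 10.5 in Trail.mye DDC. Nudt7 had a log2 fold change of -2.22 (SE 0.44, adjusted p = 0.00817). For Hsd3b5 and Nudt7 the call was lost without WT CON ROI 004 or WT DDC ROI 012. These are the 3 of 7 male-biased genes that fell (median -2.22), against 0.465% of all genes.

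Of 9 measured female-biased genes 3 fell (median -1.53), against 0.465% of all genes. Among the 3 were Cyp2b13 (log2 fold change -2.54, SE 0.54, adjusted p = 0.0152) and Cyp3a41a (log2 fold change -1.78, SE 0.42, adjusted p = 0.0372). Cyp2b13, a P450 of female liver, stood at 5.25 in WT CON and 54.3 and 44.8 in Trail.mye CON, against 7.003 and 4.50 in WT DDC and 3.50 and 5.25 in Trail.mye DDC. Its CON signal was in the Trail.mye segments alone, and in WT the diets overlapped. The call was lost without either Trail.mye DDC segment, and Cyp3a41a kept its call in 2 of 7 fits. Hamp2, the hepcidin paralog whose promoter is shown above, had the same shape, at 10.5 in WT CON and 134 and 166 in Trail.mye CON, against 3.50 and 9.004 in WT DDC and 3.50 and 5.25 in Trail.mye DDC. Hamp2 had a log2 fold change of -3.59 (SE 0.57, adjusted p = 0.000671). Its call was lost without Trail.mye DDC ROI 038. A1bg had it as well, at 5.25 in WT CON and 18.1 and 19.9 in Trail.mye CON, against 3.50 and 1.50 in WT DDC and 3.50 and 2.63 in Trail.mye DDC, without a call (-2.26, adjusted p = 0.0639).

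The Trail.mye CON segments were also low for the Y-linked Gm21783, at 26.3 in WT CON and 4.67 and 5.53 in Trail.mye CON, against 14.0 and 31.5 in WT DDC and 42.0 and 18.4 in Trail.mye DDC (1.86, adjusted p = 0.0994), and for Cyp4a12a, a male-biased P450, which was at 68.3 in WT CON and 2.92 and 2.76 in Trail.mye CON. Y-linked Eif2s3y, a translation factor subunit, was called higher on DDC (log2 fold change 2.41, SE 0.50, adjusted p = 0.0135) with values of 14.0 and 4.50 in WT DDC and 21.0 and 15.8 in Trail.mye DDC, against 5.25 in WT CON and 2.92 and 2.76 in Trail.mye CON, where WT CON is a single count and the groups overlap. It was called in 3 of 7 fits with a segment left out and under 2 of the 9 other settings that tested it. All 4 measured sex-chromosome genes had a positive log2 fold change (median 1.57, 1 called). The sex of the mouse behind each segment is not in the labels, and its part in these values was not tested.

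Uptake carriers of the sinusoidal membrane gave the calls among bile acid genes. Of 15 measured, 3 fell, all of them uptake carriers, against 0.465% of all genes. None rose and the median was -1.04. Slc10a1, the sodium-taurocholate cotransporter NTCP, stood at 78.8 in WT CON and 92.2 and 92.3 in Trail.mye CON, against 31.5 and 21.0 in WT DDC and 14.0 and 13.1 in Trail.mye DDC. Slc10a1 had a log2 fold change of -2.26 (SE 0.39, adjusted p = 0.0018). The call was lost without Trail.mye DDC ROI 038. Slco1a1, an organic anion transporter, was at 47.3 in WT CON and 21.0 and 21.0 in Trail.mye CON, against 3.50 and 3.001 in WT DDC and 3.50 and 7.88 in Trail.mye DDC. Slco1a1 had a log2 fold change of -2.75 (SE 0.54, adjusted p = 0.00719). All its DDC values were at 1 to 3 counts, and the call was lost without WT CON ROI 004 or WT DDC ROI 012. Slco1b2 ran from 54.9 to 89.3 in CON to 10.5 to 45.5 in DDC segments (log2 fold change -1.80, SE 0.40, adjusted p = 0.0233) and stayed called in 3 of 7 fits with a segment left out. The export pump Abcb11 (-1.66, adjusted p = 0.0769) and Cyp8b1, the sterol 12-alpha-hydroxylase (-2.09, adjusted p = 0.067), had all DDC segments below CON and did not pass the test. Cyp7a1, the rate-limiting enzyme of bile acid synthesis, overlapped (6.002 to 21.0 in DDC, 5.25 to 16.3 in CON, 0.26, adjusted p = 0.994), and so did the receptor Nr1h4, FXR (-0.22, adjusted p = 0.994).

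Pericentral hepatocyte genes fell in 4 of 10 cases (median -1.24), against 2 of 12 periportal hepatocyte genes (median -0.31, with 1 higher). Among all genes tested, 0.465% fell and 0.294% rose. Within WT, which has 1 CON segment, the pericentral median was -2.16 and the periportal median -0.31. Within Trail.mye the 2 medians lay close together, at -0.55 and -0.43. Cyp2e1, the ethanol-oxidizing P450, stood at 741 in WT CON and 426 and 453 in Trail.mye CON, against 186 and 119 in WT DDC and 102 and 44.6 in Trail.mye DDC. Cyp2e1 had a log2 fold change of -2.49 (SE 0.30, adjusted p = 9.67e-06). Rgn, regucalcin (-2.11, adjusted p = 0.00237), and Lect2, a secreted hepatokine (-2.35, adjusted p = 0.0289), fell as well. Rgn lost its call without Trail.mye DDC ROI 038, and Lect2 kept it in 1 of 7 fits with a segment left out (without Trail.mye CON ROI 031) and lost it with TMM factors and DESeq2. Glul, glutamine synthetase of the innermost pericentral layer, did not pass the test (-0.88, adjusted p = 0.559). Of 12 P450 genes of drug and steroid metabolism 2 fell, Cyp2e1 and Cyp2c37 (-1.93, adjusted p = 0.0288), and outside that list Cyp2c67 stood at 73.5 in WT CON and 160.5 and 180.2 in Trail.mye CON, against 24.5 and 36.0 in WT DDC and 14.0 and 7.88 in Trail.mye DDC. Cyp2c67 had a log2 fold change of -2.69 (SE 0.45, adjusted p = 0.00126). Cyp2c67 lost the call without Trail.mye DDC ROI 038, and Cyp2c37 kept it in 3 of 7 fits. Among periportal genes Cyp2f2 (-1.62, adjusted p = 0.0444) and G6pc, glucose-6-phosphatase (-1.87, adjusted p = 0.0401), fell, of which Cyp2f2 kept its call in 2 of 7 fits with a segment left out and G6pc in none. The difference between the pericentral and periportal counts was not tested. No gene of the urea cycle, amino acid and methyl-group list (14 measured, median -0.37) passed the test.

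Apoa4, an apolipoprotein of the periportal hepatocyte list, rose, at 259 and 384 in WT DDC and 129.6 and 194 in Trail.mye DDC, against 89.3 in WT CON and 53.7 and 45.3 in Trail.mye CON. Apoa4 had a log2 fold change of 1.76 (SE 0.31, adjusted p = 0.00261). All DDC segments lay above CON, with WT DDC highest, and the call was lost without Trail.mye DDC ROI 038. Apoa2, a high-density lipoprotein component singled out after its values were seen, went the other way (1256 to 2017 in CON, 413 to 942 in DDC, log2 fold change -1.34, SE 0.22, adjusted p = 0.000885).

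In each of the 2 lipid lists 2 of 12 genes were called, all of them lower, against 0.465% of all genes. Fabp1, the cytoplasmic fatty acid carrier of hepatocytes, stood at 1229 in WT CON and 906 and 879.6 in Trail.mye CON, against 168 and 212 in WT DDC and 42.0 and 63.0 in Trail.mye DDC. Fabp1 had a log2 fold change of -3.44 (SE 0.30, adjusted p = 4.26e-08). All DDC segments lay far below CON, with the Trail.mye DDC segments lowest. It was among the 2 of 12 fatty acid oxidation genes that fell (median -0.75). In 5 of the 12 all DDC segments lay below CON, against 7.98% of all genes. Ppara, the receptor that controls many of these genes, did not pass the test (-0.90, adjusted p = 0.777).

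Scd1, stearoyl-CoA desaturase, stood at 1029 in WT CON and 510.0 and 459 in Trail.mye CON, against 207 and 216 in WT DDC and 154 and 110.3 in Trail.mye DDC. Scd1 had a log2 fold change of -2.05 (SE 0.26, adjusted p = 1.70e-05). Thrsp, a regulator of lipogenesis, stood at 21.0 in WT CON and 96.9 and 78.5 in Trail.mye CON, against 7.003 and 19.5 in WT DDC and 7.003 and 2.63 in Trail.mye DDC. Thrsp had a log2 fold change of -2.58 (SE 0.53, adjusted p = 0.012). Its highest values were in Trail.mye CON, and the call was lost without either Trail.mye DDC segment. Scd1 and Thrsp are the 2 of 12 genes of lipid and cholesterol synthesis that fell, and all 12 had a negative log2 fold change (median -1.10). Acsl1, which activates long-chain fatty acids, fell as well (log2 fold change -2.45, SE 0.46, adjusted p = 0.00433) and lost the call without WT CON ROI 004.

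Further hepatocyte genes among those with the lowest fold changes were Sult2a8, a sulfotransferase, at 121 in WT CON and 47.9 and 50.9 in Trail.mye CON, against 14.0 and 10.5 in WT DDC and 3.50 and 2.63 in Trail.mye DDC. Sult2a8 had a log2 fold change of -3.54 (SE 0.44, adjusted p = 1.39e-05). Car3, the muscle and liver carbonic anhydrase, was at 383 in WT CON and 91.0 and 78.5 in Trail.mye CON, against 42.0 and 45.0 in WT DDC and 14.0 and 5.25 in Trail.mye DDC. Car3 had a log2 fold change of -3.15 (SE 0.36, adjusted p = 4.21e-06). Serpina3k, an abundant serine protease inhibitor, stood at 1980.0 in WT CON and 886 and 893 in Trail.mye CON, against 483 and 651 in WT DDC and 87.5 and 181 in Trail.mye DDC. Serpina3k had a log2 fold change of -2.33 (SE 0.27, adjusted p = 6.87e-06). The Trail.mye DDC segments were lowest. Fgfr2, a growth factor receptor, was at 1 count in all 4 DDC segments, against 31.5 in WT CON and 8.17 and 7.19 in Trail.mye CON. Its adjusted p was 0.0442, with a call in 1 of 7 fits with a segment left out. With 3 counts per DDC segment as the floor, the CON mean was at least 1.87-fold higher than the DDC mean. The Trail.mye CON values lay below that floor (mean 8.35), so the bound rests on WT CON and shows no fall within Trail.mye. Counting error alone is covered by that bound. Albumin itself did not pass the test (-0.81, adjusted p = 0.195).

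Diet was next taken within each genotype. 30 genes (0.284%) were called within WT, 7 higher and 23 lower, from 2 segments against 1, and 96 (0.91%) within Trail.mye, 34 higher and 62 lower, from 2 against 2. Of the 76 reported genes of the common effect, which the test favours where both genotypes move, all 31 that rose and 43 of the 45 that fell had the same sign in both. 19 of them were called within WT and 56 within Trail.mye. The diet effect differed between the genotypes in 10 genes (0.0948%), 6 with a higher and 4 with a lower effect in Trail.mye, and 322 had an unadjusted p under 0.05.

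Gstp1, the pi-class glutathione transferase, which male livers express more, stood at 657 in WT CON and 56.0 and 54.2 in Trail.mye CON, against 396 and 398 in WT DDC and 196 and 263 in Trail.mye DDC. It rose within Trail.mye (log2 fold change 2.06, adjusted p = 5.30e-06) and not within WT (-0.73), with a difference 2.79, SE 0.47, adjusted p = 0.000508, lost without either Trail.mye CON segment. The low values were those of Trail.mye CON. Alb stood at 7264 in WT CON and 8974 and 8356 in Trail.mye CON, against 7682 and 10233 in WT DDC and 2476 and 3849.8 in Trail.mye DDC, lower in Trail.mye DDC alone (difference -1.76, SE 0.36, adjusted p = 0.012), and lost the call without WT DDC ROI 012. Bhmt, which remethylates homocysteine, was high in WT CON alone, at 409.7 in WT CON and 101 and 64.7 in Trail.mye CON, against 116 and 111 in WT DDC and 105 and 179 in Trail.mye DDC (difference 2.66, SE 0.52, adjusted p = 0.00687).

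Cyp2a4, a female-biased steroid hydroxylase, stood at its floor of 1 count in WT CON, with values of 5.25 in WT CON and 182 and 169 in Trail.mye CON, against 140.1 and 111 in WT DDC and 77.0 and 192 in Trail.mye DDC (difference -4.86, SE 1.05, adjusted p = 0.0246). Cyp4a14, a fatty acid hydroxylase, stood at 10.5 in WT CON and 39.7 and 49.2 in Trail.mye CON, against 35.0 and 37.5 in WT DDC and 3.50 and 5.25 in Trail.mye DDC (difference -5.05, SE 1.10, adjusted p = 0.0246), low in Trail.mye DDC and in WT CON. Hba-a1, an alpha globin that comes with red cells, ran over 602 and 159 in WT DDC and 334 and 59.7 in Trail.mye CON, so that its replicates lay far apart (difference -3.72, SE 0.79, adjusted p = 0.0217). Oat, a pericentral aminotransferase (difference 3.77, SE 0.69, adjusted p = 0.00232), Nfil3, a circadian transcription factor (difference 5.21, SE 1.10, adjusted p = 0.0246), and Scp2, a sterol carrier (difference 2.33, SE 0.53, adjusted p = 0.0374), were highest in WT CON.

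Eif2d, a translation initiation factor, rests on 1 segment. It stood at 473 in WT CON and 6.42 and 6.08 in Trail.mye CON, against 7.003 and 9.004 in WT DDC and 10.5 and 13.1 in Trail.mye DDC, and its high value in WT CON set the common diet effect (log2 fold change -4.14, SE 0.72, adjusted p = 0.00201), the genotype difference (difference 6.71, SE 1.00, adjusted p = 4.39e-05) and a region difference. Without that segment the common log2 fold change was 0.93. Apart from Eif2d, called in all 6 fits that left out a segment and kept both diets in both genotypes, the genotype differences held in 2 to 5 of those fits, and none of the 10 held after the segments were thinned to the smallest total.

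**Figure D3:**
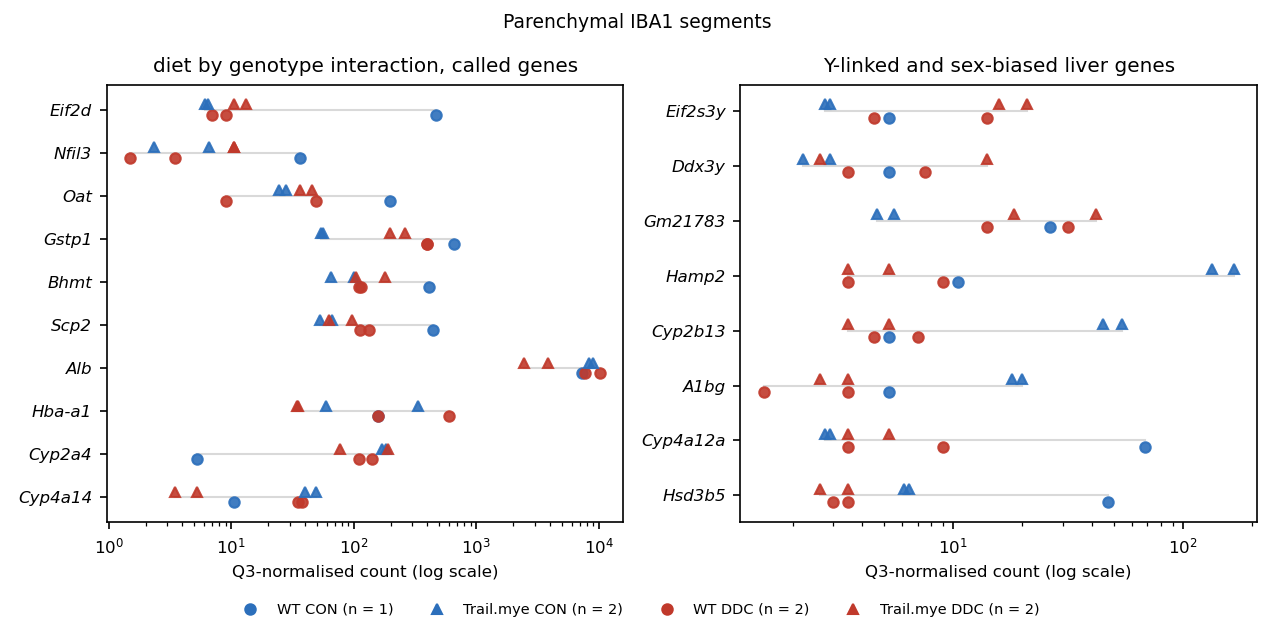
Q3-normalized counts (log axis) in the 7 parenchymal IBA1 segments, by diet and genotype, of the 10 genes whose diet effect differed between the genotypes (left) and of Y-linked, male-biased and female-biased genes (right). Gstp1 lay at 56.0 and 54.2 in Trail.mye CON and at 196 to 657 elsewhere, and Cyp2b13 at 54.3 and 44.8 in Trail.mye CON and at most 7.003 elsewhere.

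The parenchymal diet effect was then set against the periportal one. In a fit of all 22 IBA1 segments, 1111 genes (10.5%) were called in the 15 periportal segments, which have more segments per group. Of the 76 reported parenchymal genes, 62 were called there in the same direction, which is 81.6% of the 76 and 5.58% of the 1111, 1 in the other direction (Apoa4) and 13 not. The difference between the regions itself passed the test in 6 genes (0.0569%), and 623 had an unadjusted p under 0.05.

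Of the 6, the Kupffer cell genes Clec4f and Cd5l kept the call in every fit with a segment left out. Clec4f, a lectin of Kupffer cells, stood at 70.0 and 108 in WT DDC and 109 and 81.4 in Trail.mye DDC, against 42.0 in WT CON and 129 and 146 in Trail.mye CON, with no call (-0.11, adjusted p = 0.994), and the WT CON value was the lowest. In periportal segments it had a median of 116 in the 6 CON segments (72.2 to 215) and 9.70 in the 9 DDC segments (3.94 to 26.3). The effects differed (difference 3.46, SE 0.49, adjusted p = 1.89e-05), and the call held in all 22 fits that each left out 1 IBA1 segment, of which the 15 without a periportal segment were added after the data were seen. Cd5l, a scavenger protein secreted by Kupffer cells, stood at 109 and 164 in WT DDC and 98.0 and 155 in Trail.mye DDC, against 68.3 in WT CON and 104 and 116 in Trail.mye CON in the parenchyma (0.45, adjusted p = 0.96) and had a median of 72.2 in the 6 CON segments (61.3 to 99.8) and 13.0 in the 9 DDC segments (5.25 to 36.8) around the portal tracts (difference 2.76, SE 0.46, adjusted p = 0.000337), and held in all 22 fits too.

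Over the list, none of 10 Kupffer cell genes passed the test in the parenchyma (median -0.14, which turned to 0.05 with TMM factors), whereas 9 fell and 1 rose in periportal segments (median -1.79). The summed list was 322 to 482 in parenchymal DDC and 315 to 469 in CON segments, and 57.8 to 163 against 295 to 604 in periportal ones. The differences of Vsig4, a complement receptor (difference 2.05, SE 0.49, adjusted p = 0.0895), of Folr2, a folate receptor (difference 1.90, SE 0.49, adjusted p = 0.138), and of the iron exporter Slc40a1 (difference 1.23, SE 0.45, adjusted p = 0.595) did not pass the test. Marco, a scavenger receptor, stood at 42.0 and 40.5 in WT DDC and 21.0 and 36.8 in Trail.mye DDC, against 5.25 in WT CON and 11.7 and 17.7 in Trail.mye CON, above CON in all DDC segments without a call (1.26, adjusted p = 0.23), and fell in periportal segments (-0.98, adjusted p = 0.0306), with a difference 2.23, SE 0.52, adjusted p = 0.0842.

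Apoa4 rose in the parenchyma and had a median of 88.3 in the 6 CON segments (28.9 to 142) and 44.5 in the 9 DDC segments (16.3 to 99.8) in periportal segments (difference 2.61, SE 0.50, adjusted p = 0.00472). The call was lost without WT CON ROI 004 or Trail.mye DDC ROI 038. Ccdc80, a matrix protein of fibroblasts, was at 3.50 to 14.0 in parenchymal DDC and 5.25 to 13.4 in CON segments, and had a median of 8.86 in the 6 CON segments (5.25 to 14.4) and 60.8 in the 9 DDC segments (42.0 to 120.0) around the portal tracts (difference -3.61, SE 0.69, adjusted p = 0.00472), a call that held in 19 of 22 fits. Hand2, a transcription factor of stellate cells, differed as well (difference -3.53, SE 0.77, adjusted p = 0.0354) and held in 14 of 22 fits. In the parenchyma Hand2 stood at 36.8 in WT CON and 7.003 and 5.53 in Trail.mye CON, with 1 to 3 counts in each DDC segment. The call was lost without WT CON ROI 004, among other segments, and held under 2 of the 6 other settings that tested it. Eif2d was the last of the 6, through the single WT CON value given above (difference -4.64, SE 0.68, adjusted p = 1.89e-05).

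Where both regions moved the same way, the sizes were set side by side. Gm3776 had log2 fold changes of 5.46 in parenchymal and 2.53 in periportal segments of the 22-segment fit (difference 2.93, SE 0.69, adjusted p = 0.0842), and Gstm3 of 4.92 and 2.32 (difference 2.60, SE 0.61, adjusted p = 0.0842), neither difference passing the test. The NRF2 list had a median of 1.25 in the parenchyma and 0.03 in periportal segments, where 3 genes rose. Krt8 (3.34 and 2.53, adjusted p of the difference = 0.907), Lcn2 (3.16 and 2.79, 0.977) and Mmp12 (4.15 and 2.82, 0.845) rose in both regions. The matrix list had 12 of 14 genes higher in periportal segments (median 1.95) and 1 of 14 in the parenchyma (median 0.42), and the hepatocyte list 11 of 12 lower (median -1.73) and 1 of 12 (median -0.45). The periportal segments outnumber the parenchymal ones, which bears on such counts.

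**Figure D4:**
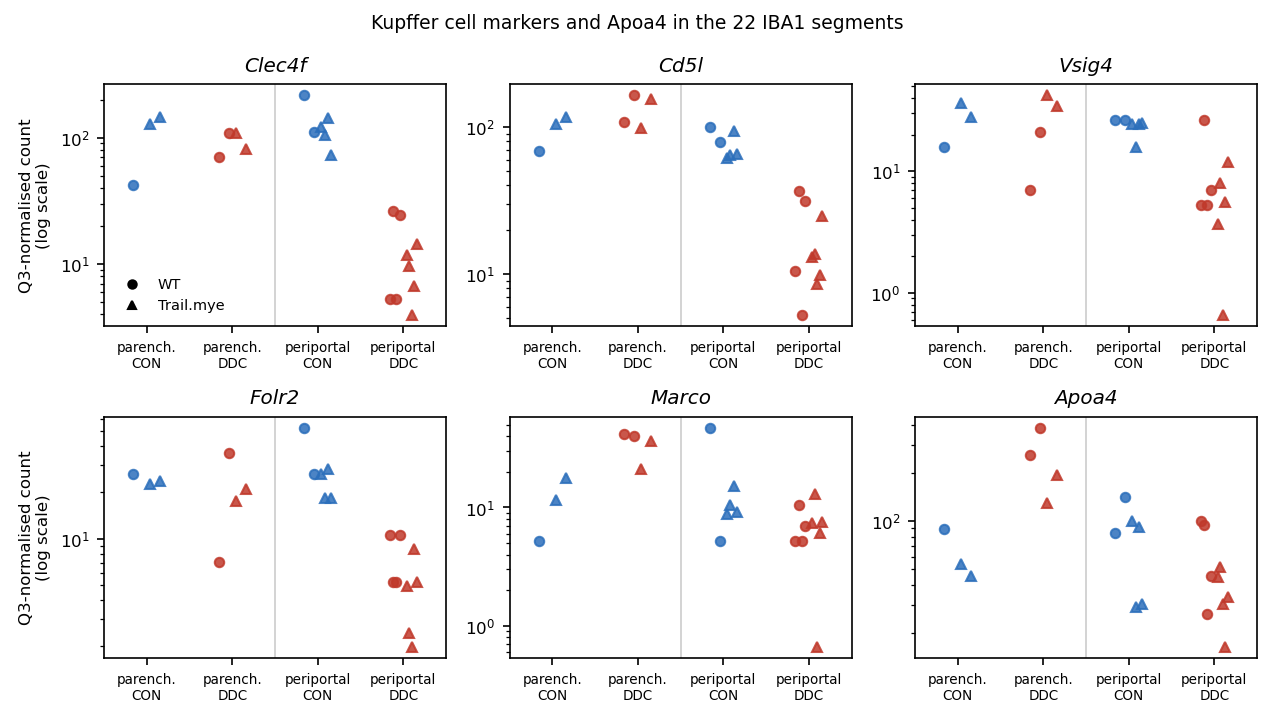
Q3-normalized counts (log axis) of Clec4f, Cd5l, Vsig4, Folr2, Marco and Apoa4 in the 22 IBA1 segments, by region and diet, 1 point per segment. Clec4f lay at 70.0 to 109 in parenchymal DDC and at 3.94 to 26.3 in periportal DDC segments.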

How the data were processed

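The 38 segments were grouped by the genotype, diet, tissue and cell type in their labels, and each segment's columns were matched by its ROI number. The deposited expected counts hold 1 value for each gene target in each segment, which the authors made from GeoMx whole-transcriptome probes. The submitters' processing notes name bcl2fastq and mm10. The study filtered targets on the limit of quantification. The aligner and the deduplication method were not given in the sources used here. The values of 3 genes are not whole and were rounded for the count tests, the lowest value is 1, and the negative probe was left out. Signal values, deposited beside them, are the authors' Q3-normalized counts, and were checked to equal the counts multiplied by 1 factor for each segment.

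The common diet effect was fitted over 10547 genes in the 7 parenchymal segments with edgeR 4.0.16 (quasi-likelihood fit and test, upper-quartile factors at the 75th percentile, genotype as a term, residual df 4) in R 4.3.3. Diet within each genotype and the interaction came from a fit with 4 groups (residual df 3), and the region difference from a fit of the 22 IBA1 segments (residual df 16). Every adjusted p is edgeR's, two-sided, after Benjamini-Hochberg over all genes, and a call is an adjusted p under 0.05. Fold changes are DDC over CON, and the standard error is the log2 fold change over the square root of F. On simulated data the common diet effect was recovered for 2.99, 42.3 and 57.1% of genes changed 2-, 4- and 8-fold. For the interaction these shares were 0.498, 2.99 and 4.04%, and for the region difference 0.995, 26.4 and 49%. Genes with the lowest counts were not among those changed. A gene without a call may therefore have changed. Depth was 33832 to 265758 counts per parenchymal segment, and bounds cover counting error only.

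The alternatives were TMM factors, DESeq2 1.42.0, edgeR's filter on low counts, limma 3.58.1 on log2(Q3-normalized count + 1) and with 0.5, counts of 1 set to 0, thinning to the smallest total, no genotype term, the mean of the genotypes' effects, 1 fit for all 22 IBA1 segments, each genotype alone, the study's volcano thresholds, the methods' two-group test, and each segment left out. Leaving out periportal segments was added after the data were seen. Genes named are the 12 highest and 12 lowest log2 fold changes among called genes whose diets do not overlap, every called member and the 4 members with the highest mean in each list, the 3 highest and 3 lowest of the interaction and the region difference, and cell type markers. Named beyond that rule, after their values were seen, are the remaining genes of the interaction, the called genes listed as stable, Gsta4, Apoa2, Mst1, and A1bg, Abcb11, Cp, Cyp7a1, Cyp8b1, Gclc, Mgst3, Nqo1, Nr1h4, Ppara, Saa1, Saa2, Srxn1, Tgm2 and Txnrd1. The members and the lists were chosen with earlier results of these data known. 4 called genes are not reported here. Promoters are RefSeq sequences of GRCm38.p6. Plots were drawn with matplotlib 3.10.9.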

Additional observations from a re-analysis of the deposited data

Results flagged for a closer look

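In 4 of the 76 reported genes called for diet, 1 of the 4 DDC segments stood apart from the other 3 by Dixon's ratio of the gap to the range, whose critical value chance exceeds in about 1 of 20 groups. Trail.mye DDC ROI 037 was lowest for Cyp3a41a (0.833). WT DDC ROI 012 was highest for Mst1, hepatocyte growth factor-like protein (0.920). Trail.mye DDC ROI 038 was highest for the metallothionein Mt1 (0.868) and for Slco1a1 (0.897). Slco1a1 is at 1 to 3 counts in these segments.

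The diet effect differed between the genotypes in 10 genes by the interaction test. On the log2 scale, Trail.mye minus WT, the difference was 6.71 for Eif2d, 5.21 for Nfil3, 3.77 for Oat, 2.79 for Gstp1, 2.66 for Bhmt and 2.33 for Scp2, and -1.76 for Alb, -3.72 for Hba-a1, -4.86 for Cyp2a4 and -5.05 for Cyp4a14. Each uses the single WT CON segment.

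The diet effect differed between parenchymal and periportal IBA1 segments in 6 genes by the test of that difference. Parenchymal minus periportal, it was 3.46 for Clec4f, 2.76 for Cd5l, 2.61 for Apoa4, -3.53 for Hand2, -3.61 for Ccdc80 and -4.64 for Eif2d.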

How the results depend on the processing

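The 80 genes called for diet became 187 of 797 tested with edgeR's filter on low counts, 125 with counts of 1 set to 0, 34 after thinning, 30 in WT alone, 570 with the volcano thresholds and 0 with the methods' two-group test (991 at an unadjusted p under 0.05), and 36 to 99 with 1 segment left out (36 without Trail.mye DDC ROI 038, 48 without ROI 037, 99 without WT CON ROI 004). TMM factors, DESeq2, limma and the other designs gave 59 to 106. The volcano thresholds were applied to the common fit's p-values, and the two-group test pooled the genotypes. The study compared the diets within each genotype, so neither count comes from its own test. The 10 interaction genes became 2 with DESeq2, 19 of 1176 with the filter, 16 with limma at a pseudocount of 1, 0 after thinning (edgeR, 274 at an unadjusted p under 0.05), and 3 (without Trail.mye CON ROI 030) to 16 (without Trail.mye DDC ROI 038), and could not be fitted without WT CON ROI 004. The 6 region genes became 54 with DESeq2, 29 of 3768 with the filter, 33 and 32 with limma at a pseudocount of 1 and of 0.5, 18 with counts of 1 set to 0, 3 after thinning, and 4 to 9 with a segment left out. The filters and thinning test fewer genes or counts, and the cause of the other changes was not tested. The sign of the diet effect turned in WT alone for Cyp2b13 (0.0067) and in Trail.mye alone for Eif2d (0.92), whose common effect ran from -5.07 to 0.93 and whose region difference from -5.49 to 0.57 with a segment left out, positive without WT CON ROI 004. No paired analysis was possible because the groups compared share no ROI number. Depth limits the genes at 1 count in WT CON and DDC segments, for which only large changes were detectable.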
